A study of Homo sapiens with 36 samples.

Results

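The genes described here encode 7 ubiquitin ligases of giant size, HUWE1, HERC1, HERC2, TRIP12, UBR4, BIRC6 and MYCBP2. A PAR-CLIP cluster was counted for a gene when its midpoint lay on the gene's strand and within the gene body of GENCODE 44 on GRCh38. With this rule the genes held 929 of the 278185 clusters in 18 lists, and they are 7 of the 9830 protein-coding genes with a cluster in any list. PAR-CLIP marks RNA that was crosslinked to protein through 4-thiouridine (4SU), and a cluster is a short stretch of transcript in which T→C transitions accumulate in the reads.

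The lists came from Flp-In T-REx HEK293 cells, an established line of human embryonic kidney origin, and formed 6 groups with 3 replicates each. FLAG-SCAF4 or FLAG-SCAF8 was expressed from a doxycycline-inducible transgene in stable lines, so that tagged protein was added to the endogenous SCAF4 and SCAF8. The parental line carried no tagged protein, and its FLAG pull-out is called control IP. The labels give doxycycline at 100 ng/mL for both FLAG lines and none for the parental line, whereas the methods give a higher dose for all cells. Every line received 100 μM 4SU overnight and 500 μM for 2 h, was irradiated with 2000 J/m2 at 365 nm, and gave an IP and an input from the same extract. Replicate 1 was read with longer reads than replicates 2 and 3. SCAF4 IP lists held 18991 to 54404 clusters, SCAF8 IP lists 18287 to 41502, control IP lists 1621 to 9638 and the inputs 4567 to 12493. No read counts were in the lists, so the depth is unknown, and values are given as clusters per 10000 clusters of the list.

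SCAF4 and SCAF8 are nuclear proteins that bind RNA and the phosphorylated C-terminal domain of RNA polymerase II, and the study asked where they bind nascent transcripts. Ubiquitin ligases choose the proteins to which ubiquitin is transferred and so set their degradation or signaling. HUWE1, HERC1, HERC2 and TRIP12 carry a C-terminal HECT domain, which takes up ubiquitin as a thioester before passing it on. UBR4 recognizes destabilizing N-terminal residues through a UBR box, BIRC6 joins a BIR domain of the inhibitor of apoptosis family with a ubiquitin-conjugating domain, and MYCBP2 is a ligase of the RING family known from axon development. Their coding sequences are spread over a large number of short exons, which makes long primary transcripts with numerous splice junctions.

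The genes lie on chromosomes 1 (UBR4, 19074510 to 19210266, minus strand), 2 (BIRC6, 32357023 to 32619571, plus strand, and TRIP12, 229763837 to 229923239, minus strand), 13 (MYCBP2, 77042474 to 77327094, minus strand), 15 (HERC2, 28111040 to 28322179, and HERC1, 63608618 to 63833948, both minus strand) and X (HUWE1, 53532096 to 53686752, minus strand). In the longest isoform by mRNA length, they have 43 (TRIP12) to 106 (UBR4) exons, and the mRNA measures 10129 nt in TRIP12 and up to 17482 nt in MYCBP2. The median mRNA of all genes tested was 4003.5 nt long. Exons make up 6.14% of the gene body in MYCBP2 and 11.7% in UBR4, the lowest and the highest share of the 7.

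Clusters of the 18 lists were joined into regions wherever they shared 1 nt or more and the strand. For each gene, the 100 nt around the midpoint of its leading region are shown. No other region of the gene was held by more of the 6 SCAF4 and SCAF8 IP lists. In MYCBP2 the leading region was held by 3 of them. The cluster of a single list need not cover all of these 100 nt. The strand is that of the transcript, the sequence is that of GRCh38, and capitals mark the letters of the motifs named in the study. These are CGG or CGA, then CCAGC or CCAGG as well as GCAGC or GCAGG, and finally CTCC or CACC. Neighboring matches may overlap. The HERC2 stretch begins in intron 3 and runs into exon 4.
HUWE1, exon 5, chrX:53647417-53647516: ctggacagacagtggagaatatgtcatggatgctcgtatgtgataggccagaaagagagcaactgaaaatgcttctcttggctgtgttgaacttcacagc
HERC1, exon 38, chr15:63674452-63674551: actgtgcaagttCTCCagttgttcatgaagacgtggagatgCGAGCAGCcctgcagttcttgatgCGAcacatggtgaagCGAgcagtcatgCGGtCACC
HERC2, exon 4, chr15:28292936-28293035: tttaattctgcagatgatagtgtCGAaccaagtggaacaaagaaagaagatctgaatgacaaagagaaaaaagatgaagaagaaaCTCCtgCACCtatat
TRIP12, exon 5, chr2:229859135-229859234: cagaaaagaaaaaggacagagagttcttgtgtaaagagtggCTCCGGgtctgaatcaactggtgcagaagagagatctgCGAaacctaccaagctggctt
UBR4, intron 62 and exon 63, chr1:19127722-19127821: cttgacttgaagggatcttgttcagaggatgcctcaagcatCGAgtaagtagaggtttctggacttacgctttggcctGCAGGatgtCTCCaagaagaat
BIRC6, intron 1, chr2:32358221-32358320: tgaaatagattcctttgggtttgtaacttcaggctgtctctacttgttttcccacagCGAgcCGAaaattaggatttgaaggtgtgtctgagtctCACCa
MYCBP2, exon 12, chr13:77261189-77261288: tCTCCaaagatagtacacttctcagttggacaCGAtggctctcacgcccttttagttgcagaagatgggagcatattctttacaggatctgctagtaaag
The HERC1 stretch held 4 matches to CGG or CGA, and the HUWE1 stretch held no match to any of the motifs. These 7 stretches held 19 to 34 T per 100 nt, the bases at which 4SU can crosslink. For contrast, the region held by most inputs lay in intron 1 of HUWE1 and was found in 8 of the 9 inputs, 5 SCAF IP lists and 1 control IP list. It had no motif match either.
HUWE1, intron 1, chrX:53680674-53680773: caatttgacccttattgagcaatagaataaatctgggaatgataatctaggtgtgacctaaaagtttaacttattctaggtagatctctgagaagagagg

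Over all 299 regions with a cluster of a SCAF4 or SCAF8 IP, the 100 nt window held CGG or CGA on the transcript strand in 195 (65.2%), against 64.2% of 65585 such regions in all protein-coding genes. One of CCAGC or CCAGG as well as GCAGC or GCAGG occurred in 131 (43.8%) against 43.0%, and CTCC or CACC in 158 (52.8%) against 48.0%. The genes varied among themselves. CGG or CGA was found in 31 of 32 regions of HERC2, 10 of 11 of TRIP12 and 4 of 11 of MYCBP2. Regions of the same gene are not independent, and these shares are a description.

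SCAF4 and SCAF8 IP lists held clusters in every one of the 7 genes, and 5 of the genes had clusters in all 6 lists. Of all genes tested, 37.3% had clusters in all 6. The number per gene spanned more than 1 order of magnitude. UBR4 had 301 clusters over the 6 lists and ranked 5 among all protein-coding genes, and HUWE1 had 228 and ranked 13. BIRC6 followed with 77, HERC2 with 71, HERC1 with 32, TRIP12 with 27 and MYCBP2 with 18. The median over the 9830 genes was 9. Per kb of mRNA, UBR4 held 18.9 clusters (higher than 94.9% of the genes tested), HUWE1 15.4 (92.7%), BIRC6 4.76 (69.1%), HERC2 4.62 (68.4%), TRIP12 2.67 (53.0%), HERC1 2.11 (46.8%) and MYCBP2 1.03 (29.3%). The median per kb was 2.38 over all genes, so that HERC1 and MYCBP2, despite their length, lay below it. Transcript abundance was not measured in these lists and cannot be told apart from binding in such numbers.

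HUWE1, whose ligase targets MCL1 and p53 among other proteins, held 29, 66 and 47 clusters in replicates 1, 2 and 3 of SCAF4 IP and 33, 16 and 37 in SCAF8 IP. Control IP held 14, 0 and 2. Input counts were 18, 1 and 4 for FLAG-SCAF4 cells, 12, 6 and 2 for FLAG-SCAF8 cells and 22, 3 and 2 for parental cells. Scaled to the list, replicate 1 stood high in all inputs, with 15.4, 13.1 and 17.6 clusters per 10000 against 1.96 to 8.35 in the other 6, and the IP and input groups overlapped. The share was 12.0 ± 2.66 per 10000 (mean ± SD, n = 6, here and below) in the SCAF IP lists and 7.80 ± 5.57 in the 6 inputs of the same lines. The difference of 4.20 did not pass (two-sided exact permutation test over all 924 splits of 6 against 6 lists, p = 0.128, adjusted p = 0.379 over 9830 genes). HUWE1 was thus a gene rich in clusters with or without the pull-out.

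HERC1, which joins its HECT domain to RCC1-like repeats, held 1, 17 and 7 clusters in SCAF4 IP and 3, 0 and 4 in SCAF8 IP. No control IP list held any, and among the 9 inputs there was 1 cluster, in replicate 1 of the FLAG-SCAF8 line. The share was 1.31 ± 1.12 per 10000 in the SCAF IP lists and 0.182 ± 0.446 in their inputs (exact permutation test, p = 0.0411, adjusted p = 0.199). The values overlapped through replicate 2 of SCAF8 IP, which had none.

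HERC2, a partner of RNF8 in the response to DNA double-strand breaks, held 6, 25 and 18 clusters in SCAF4 IP and 6, 2 and 14 in SCAF8 IP. Control IP held 1, 0 and 0, and among the 9 inputs 1 cluster each came from replicate 1 of the FLAG-SCAF4 line and of the parental line. Every SCAF IP list lay above every input. The share was 3.32 ± 1.51 per 10000 against 0.142 ± 0.348 in the inputs of the same lines, and the difference of 3.18 passed (exact permutation test, p = 0.00216, the smallest possible with 924 splits, adjusted p = 0.0361). In pooled clusters the ratio was 18.5, with a 95% exact interval from 3.22 to 741 for counting error, since the inputs contributed 1 cluster.

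The HERC2 values are uncertain in part, because this gene has near-identical copies. Of its 32 regions with a SCAF IP cluster, 13 matched other places of the genome with at least 95% identity over at least 50 nt, among them exon 4 shown above, and 12 of the 13 lay in exons. The other 6 genes had 1 such region together, in intron 9 of UBR4. The authors' alignment reported 1 place per read even where a read fitted several, so reads of HERC2 and its copies could have been exchanged. The annotated copies HERC2P2 and HERC2P9 held 64 and 63 clusters in the SCAF IP lists, close to the 71 of HERC2, and HERC2P3 held 22. Without the 13 regions, HERC2 kept 3, 13 and 8 clusters in SCAF4 IP, 4, 1 and 7 in SCAF8 IP and none in the 6 inputs of these lines. The difference to these inputs then was 1.69 per 10000 (exact permutation test, adjusted p = 0.0361).

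TRIP12, a HECT ligase with a WWE domain, held 1, 8 and 2 clusters in SCAF4 IP and 5, 1 and 10 in SCAF8 IP. No control IP list held any and 1 of the 9 inputs did, replicate 1 of the FLAG-SCAF8 line with 1 cluster. The share was 1.25 ± 0.823 per 10000 in the SCAF IP lists and 0.182 ± 0.446 in their inputs (exact permutation test, p = 0.0195, adjusted p = 0.113).

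UBR4 held 21, 97 and 74 clusters in SCAF4 IP and 17, 33 and 59 in SCAF8 IP. Control IP held 7, 1 and 1, and the inputs held 7, 6 and 4, then 5, 14 and 12, then 6, 2 and 4 clusters in the FLAG-SCAF4, FLAG-SCAF8 and parental lines. As shares, the SCAF IP lists spanned 6.75 to 21.8 per 10000 and the inputs of their lines 5.47 to 13.5, so that the groups overlapped, and replicate 1 was the lowest list in each of these 4 groups. The means were 14.9 ± 5.43 and 9.73 ± 3.62, and the difference was 5.22 per 10000 (exact permutation test, p = 0.0823, adjusted p = 0.267).

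BIRC6 held 6, 26 and 13 clusters in SCAF4 IP and 13, 6 and 13 in SCAF8 IP. Control IP held 1, 0 and 0. Input counts were 2, 1 and 0 with FLAG-SCAF4, 2, 2 and 2 with FLAG-SCAF8 and 4, 0 and 0 in parental cells. Shares of the SCAF IP lists lay between 3.13 and 5.16 per 10000 and those of their inputs between 0 and 2.22, without overlap, although the parental input of replicate 1 reached 3.20. With means of 3.89 ± 0.882 and 1.67 ± 0.838, the difference of 2.22 per 10000 passed (exact permutation test, p = 0.00216, adjusted p = 0.0361), and the pooled ratio was 2.23 (95% exact interval 1.12 to 5.06).

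MYCBP2 held 0, 2 and 4 clusters in SCAF4 IP and 3, 2 and 7 in SCAF8 IP. Neither the control IP nor the inputs of the FLAG lines held a cluster, and the parental input of replicate 3 held 1. The share was 0.919 ± 0.618 per 10000 in the SCAF IP lists (exact permutation test against their inputs, p = 0.0152, adjusted p = 0.0927). In these inputs, 0 of 50137 clusters allow up to 0.598 per 10000 over the 6 lists. The pooled SCAF IP share of 0.936 per 10000 was 1.56 times this limit. Counting error of the 18 SCAF IP clusters is not part of that ratio, so it is not a lower bound.

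**Figure D1:**
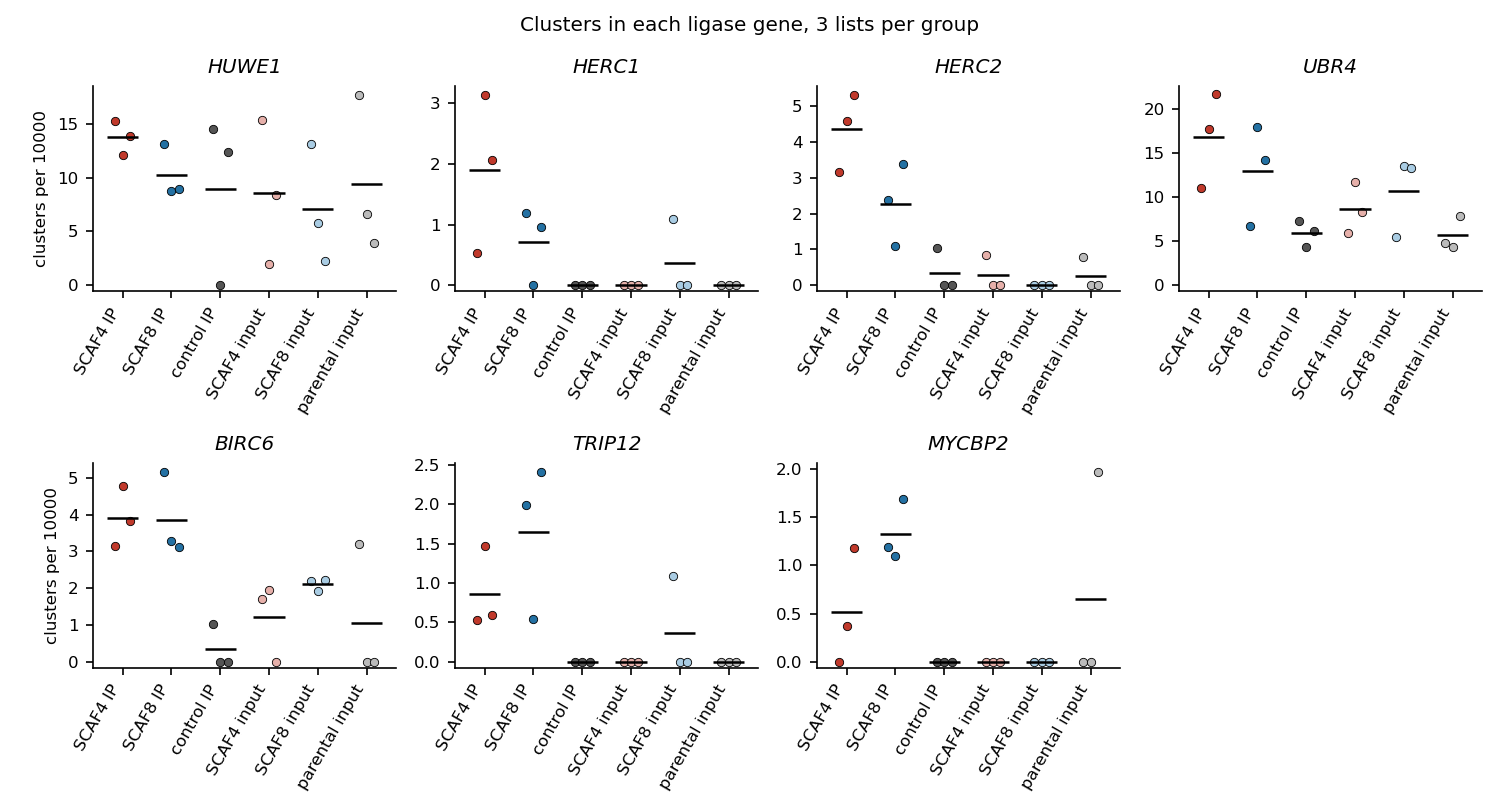
Clusters per 10000 clusters of the list (vertical axis) in each gene. A point is 1 list, the 3 points of a group are replicates 1, 2 and 3 from left to right, and bars are means of 3 lists. HERC2 and BIRC6 lists of SCAF4 and SCAF8 IP all sit above the inputs of the same lines, whereas HUWE1 and UBR4 lists overlap with their inputs.

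In all, 2 of the 7 genes (HERC2 and BIRC6) were called higher in SCAF4 and SCAF8 IP than in their inputs at an adjusted p under 0.05, and none lower. Of all genes tested, 385 (3.92%) were called higher and 205 (2.09%) lower. This test split the 12 lists freely, although each IP shares its extract with an input. With the replicate as a block (exact permutation test, adjusted p = 0.255 for both genes) or without any 1 replicate, none of the 9830 genes was called. The median difference to the inputs was 2.22 per 10000 in the 7 genes against 0.128 over all genes. The 7 genes also held more clusters, with a median of 71 in the SCAF IP lists against 9. The difference was not scaled to that number. In raw numbers of clusters, where the larger SCAF IP lists are not scaled down, 5 of the 7 genes were called (HUWE1, HERC2, UBR4, BIRC6 and TRIP12), with 1925 genes called over all. With bases covered in place of clusters only HERC2 of the 7 was called, with 435 genes (4.43%) called higher over all. With the upper part of each list by score (at or above its median) no gene of the 9830 was called.

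The comparison with control IP used the same 6 SCAF IP lists as that with the inputs, so the pair are not independent. Against control IP, which shows what the FLAG pull-out retains without tagged protein, all 6 SCAF IP lists lay above all 3 control IP lists for HERC2, BIRC6 and TRIP12, 3 of the 7 genes. This separation was found in 11.2% of all genes upwards and in 2.22% downwards, the latter in none of the 7. No gene of the 9830 passed an adjusted p of 0.05 in the exact permutation test over 84 splits, which cannot go below p = 0.0119, and 1700 genes had an unadjusted p under 0.05. For HERC2 the separation was narrow, since SCAF8 IP replicate 2 had 1.09 per 10000 and control IP replicate 1 had 1.04, and without the regions that match other places it was lost. HERC1, TRIP12 and MYCBP2 had 0 of 13573 control IP clusters, which allows up to 2.21 per 10000 over the 3 lists. Their SCAF IP means of 1.31, 1.25 and 0.919 lay under that limit, so a difference to control IP was not detectable at this depth. The separation counted for TRIP12 is therefore only one from lists at 0. HUWE1 had nearly the same pooled share in SCAF IP and in control IP, with a ratio of 1.01 (95% exact interval 0.606 to 1.79), and the sign of its mean difference turned without replicate 2, from 3.05 to −0.65 per 10000. UBR4 had a pooled ratio of 2.36 (1.23 to 5.21). Replicate 1, the replicate with longer reads, also held 9638 of the 13573 control IP clusters. Without it, control IP lists of 2314 and 1621 clusters were left. Then 5 of the 7 genes were separated, now with UBR4 and MYCBP2, and so were 31.4% of all genes. Neither read length nor list size was tested as a cause.

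SCAF4 IP and SCAF8 IP did not separate for any of the 7 genes. The mean per 10000 was higher in SCAF4 IP for HUWE1 (13.7 ± 1.57 against 10.3 ± 2.47), HERC1 (1.90 ± 1.31 against 0.718 ± 0.632), HERC2 (4.35 ± 1.09 against 2.28 ± 1.14) and UBR4 (16.9 ± 5.43 against 13.0 ± 5.75). It was lower for TRIP12 (0.862 ± 0.528 against 1.65 ± 0.976) and MYCBP2 (0.515 ± 0.603 against 1.32 ± 0.318), and BIRC6 had 3.92 ± 0.814 against 3.86 ± 1.13 (SD, n = 3 lists each). The lists of both proteins overlapped for all 7 genes, with exact permutation p from 0.2 to 0.9, where 3 lists against 3 cannot go below 0.1. In HUWE1, HERC2 and MYCBP2 the difference in means still exceeded the SD of either group, and with 3 lists each no call was possible. Of all genes, 7.74% had all SCAF4 IP lists above all SCAF8 IP lists and 4.42% the reverse.

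Of the 754 SCAF4 and SCAF8 IP clusters in the 7 genes, 628 (83.3%) had their midpoint in an exon, and the share was 83.2% for SCAF4 IP and 83.5% for SCAF8 IP. Per list it ranged from 76.2 to 90.0% with a median of 85.3%, although exons are at most 11.7% of these gene bodies. Over all protein-coding genes the same lists had 58.7 to 70.2% exonic clusters, so that each SCAF IP list was more exonic in the 7 genes than in all genes. The same held for 3 of 3 control IP lists, which had 62.4 to 78.0% over all genes, and for 5 of 9 inputs, which had 46.1 to 66.6%. In the 9 inputs the exonic share in the 7 genes ran from 37.5 to 87.5% with a median of 66.7%, on 5 to 33 clusters a list, and the control IP lists had 66.7 to 100% on 1 to 23 clusters. By gene, the exonic share of SCAF IP clusters was 95.8% in HERC2, 92.6% in TRIP12, 88.9% in MYCBP2, 87.5% in HERC1, 82.0% in HUWE1, 80.5% in BIRC6 and 80.4% in UBR4. Input clusters of HUWE1 were exonic in 36 of 70 cases (51.4%), against 187 of 228 in SCAF IP, while those of UBR4 were exonic in 46 of 60 (76.7%) against 242 of 301. This difference between the inputs of the 2 genes was not tested.

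**Figure D2:**
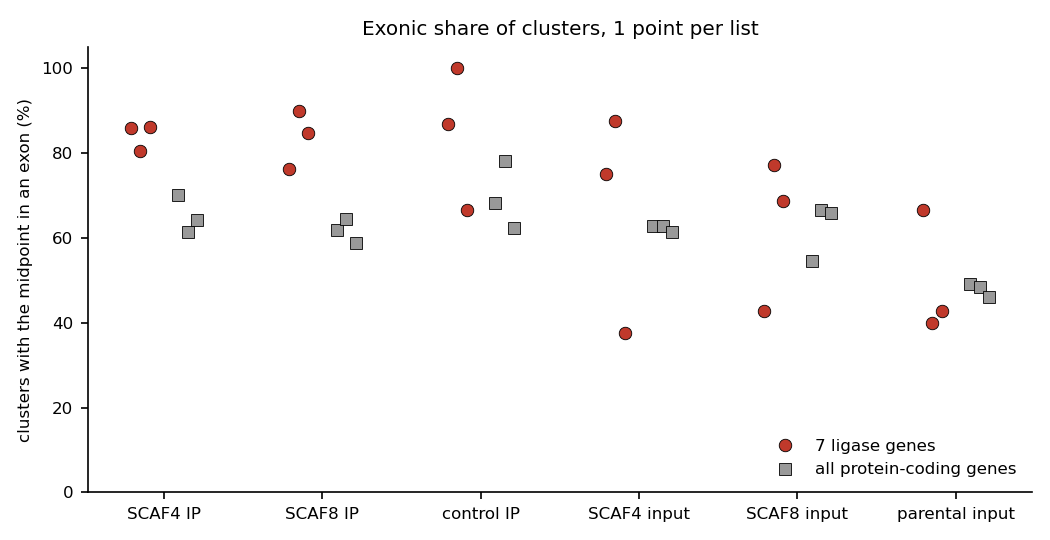
Percentage of clusters with the midpoint in an exon (vertical axis) for the 7 ligase genes together (circles) and for all protein-coding genes (squares), 1 point per list. In the 6 SCAF4 and SCAF8 IP lists the circles sit at 76.2 to 90.0% and the squares at 58.7 to 70.2%, and the inputs of the 7 genes scatter from 37.5 to 87.5%.

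About as many clusters crossed an exon boundary as stayed on 1 side of it. Among the SCAF IP clusters, 381 of 754 (50.5%, 37.5 to 54.8% per list) held both exonic and intronic bases, against 39 of 148 (26.4%) in the inputs. Whole exons were covered by 98 SCAF IP clusters (13.0%) and 4 input clusters (2.70%). UBR4, with its median exon of 146.5 nt among those hit, accounted for 62 of the 98, HUWE1 for 24, HERC2 for 7, and BIRC6 and HERC1 for none. SCAF IP clusters were wider than input clusters in these genes, with medians of 141.5 and 121 nt, and the part of this width in the boundary counts was not tested. No exonic base was held by 93 SCAF IP clusters (33 in UBR4 and 37 in HUWE1), and 14 had their midpoint in a first intron, 8 in BIRC6 and 6 in HUWE1. Coding sequence held 604 of the 628 exonic clusters. The 5′ UTR of HUWE1 held 15, and the 3′ UTRs of HUWE1, UBR4 and HERC2 held 6, 2 and 1.

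SCAF IP clusters were found in 229 of the 561 exons of the 7 genes. UBR4 was covered almost throughout, in 88 of 106 exons, and HUWE1 in 57 of 83. HERC2 had 28 of 93 exons with a cluster, BIRC6 21 of 73, HERC1 17 of 78, TRIP12 9 of 43 and MYCBP2 9 of 85. SCAF4 and SCAF8 IP met in 123 exons, 46 of them in UBR4 and 39 in HUWE1. An input cluster was present in 39 exons, and all 39 also held a SCAF IP cluster. Exons in at least 4 of the 6 SCAF IP lists numbered 68, with 27 in UBR4 and 25 in HUWE1. Of the 68, 32 had neither an input nor a control IP cluster, among them 12 in HUWE1, 9 in UBR4, 4 in HERC2 and all 3 in TRIP12. Exons with a SCAF IP cluster were longer than those without in each of the 7 genes, with medians of 168 against 104.5 nt in HUWE1, 146.5 against 103 in UBR4 and 154 against 144 in MYCBP2. A longer exon has more room for a midpoint. Pooled over the 7 genes, their medians were 23.4% T against 25.9% and 49.1% G plus C against 45.4%. This pooling mixes genes, since UBR4 and HUWE1 gave most of the exons with a cluster. Within genes, G plus C was lower with a cluster in HERC1, HERC2 (52.5% against 55.3%) and TRIP12. It was higher in HUWE1 (50.4% against 47.9%), UBR4, BIRC6 and MYCBP2.

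**Figure D3:**
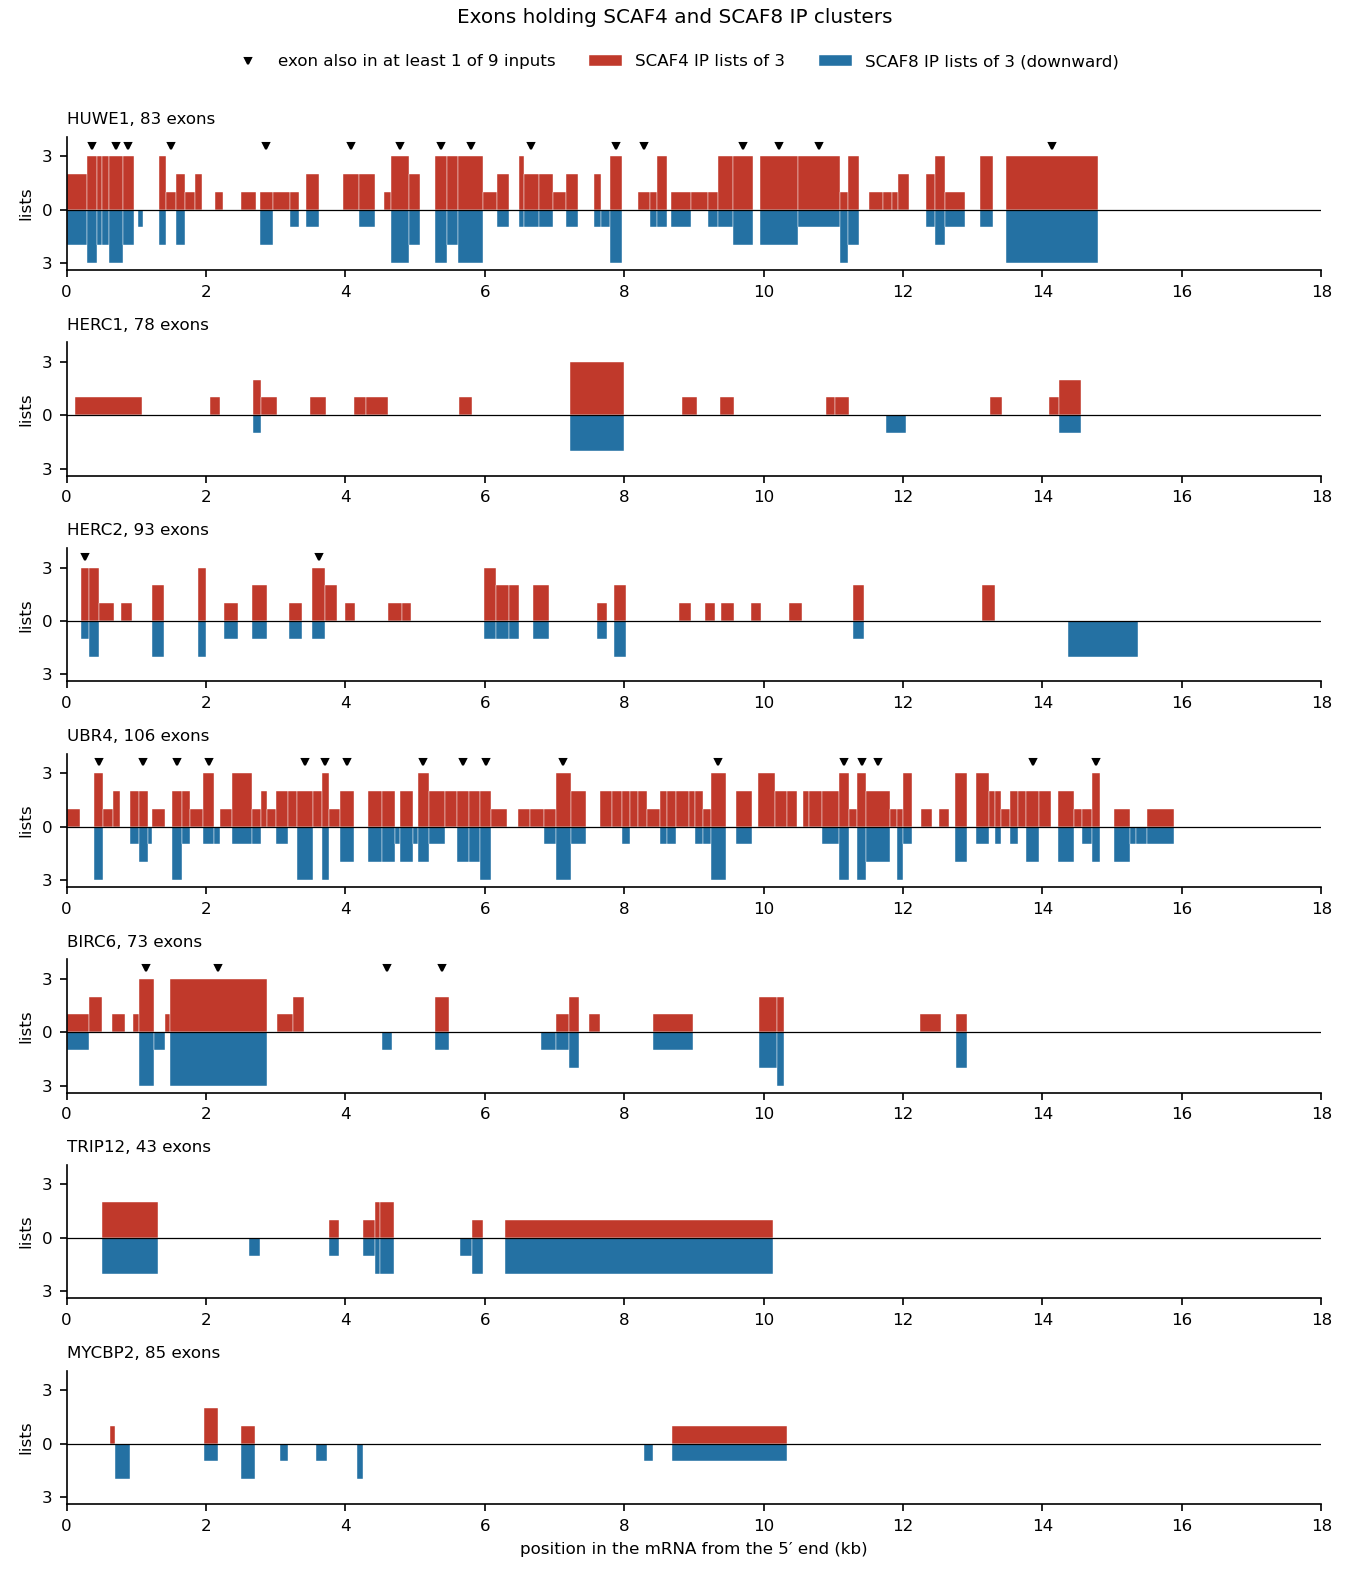
Number of lists with a cluster midpoint in each exon, for SCAF4 IP (red, upward, of 3) and SCAF8 IP (blue, downward, of 3), along the mRNA from the 5′ end (kb). A bar spans its whole exon, whatever the cluster's place within it, and triangles mark exons that also held an input cluster. UBR4 (88 of 106 exons) and HUWE1 (57 of 83) have bars along their length, whereas MYCBP2 has clusters in 9 of 85 exons. In at least 4 of the 6 lists were 27 exons of UBR4 and 25 of HUWE1.

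The genes differed in where along the mRNA the exonic clusters fell. The mRNA was divided from its 5′ end into 4 segments of 25% of its length. Over the 6 SCAF IP lists, segment 1 held 33.8% of the exonic clusters (32.4 to 38.2% per list), and segments 2 to 4 held 25.2, 24.5 and 16.6%. In UBR4 the 4 segments were near equal, at 25.6, 24.4, 28.5 and 21.5%, and in HUWE1 they were 29.9, 27.3, 22.5 and 20.3%. MYCBP2 had 13 of its 16 exonic clusters in segment 1 (81.2%) and none in segment 4. BIRC6 had 35 of 62 (56.5%) in segment 1, and 17 of these 62 came from the single exon 10, which is 1395 nt long. HERC2 had 33 of 68 in segment 1 (48.5%) and 4 in segment 4. TRIP12 reached its maximum in segment 2, with 13 of 25 (52.0%), and had none in segment 4. Its last exon measures 3842 nt with 194 coding nt in the isoform used, so that its segment 4 lies wholly in the 3′ UTR. The last exon of MYCBP2 measures 3020 nt with 113 coding nt, and most of its segment 4 is 3′ UTR. Whether these cells use such long 3′ UTRs was not tested. HERC1 had 8, 5, 9 and 6 in order. With SCAF4 and SCAF8 apart, segment 1 held 33.8% of the exonic clusters for each, and in BIRC6 64.9 and 44%. Input clusters showed 41.1% in segment 1 and 5.26% in segment 4, on 95 exonic clusters.

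**Figure D4:**
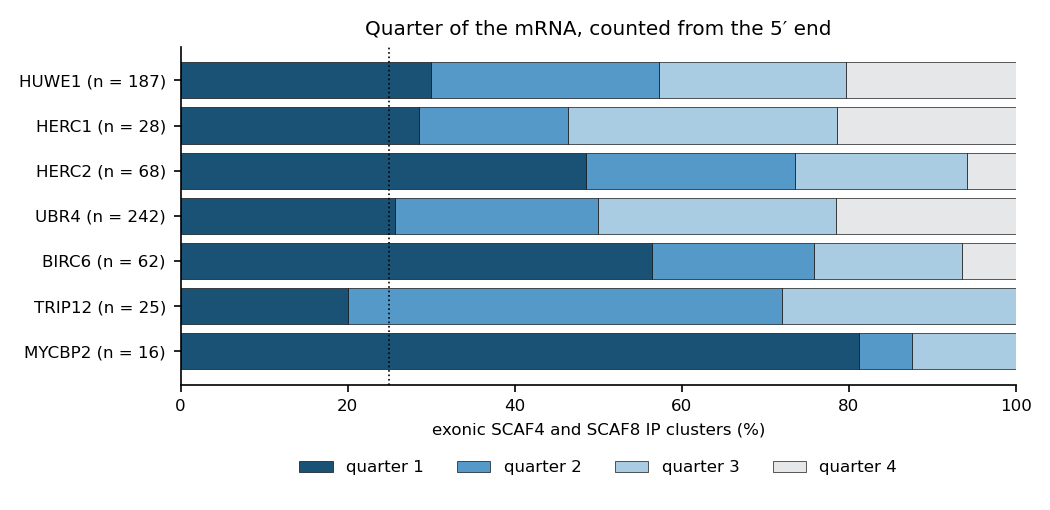
Share of the exonic SCAF4 and SCAF8 IP clusters (horizontal axis, %) in each of 4 equal segments of the mRNA, counted from the 5′ end. The number of clusters is given beside each gene and the dotted line marks 25%. Segment 1 holds 25.6% in UBR4 and 81.2% in MYCBP2, and TRIP12 and MYCBP2 have none in segment 4. In the isoforms used, segment 4 lies wholly (TRIP12) or mostly (MYCBP2) in the 3′ UTR.

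Merging of all lists gave 310 regions in the 7 genes, 299 of them with a SCAF IP cluster. SCAF4 and SCAF8 IP shared 145 of the 299 (48.5%), against 42.9% over all protein-coding genes. Of the others, 120 were found with SCAF4 IP alone and 34 with SCAF8 IP alone. The shared portion was 7 of 11 in TRIP12, 47 of 81 in HUWE1, 56 of 110 in UBR4, 15 of 32 in HERC2, 13 of 32 in BIRC6, 3 of 11 in MYCBP2 and 4 of 22 in HERC1. Regions held by at least 5 of the 6 lists numbered 42 (18 in HUWE1, 17 in UBR4, 4 in BIRC6, 2 in HERC2 and 1 in HERC1), which is a share close to the 15.0% of all genes. Among the 299 regions, 119 rested on 1 list, and 229 had no cluster of an input or of control IP. Over all protein-coding genes, 29457 of 65585 such regions rested on 1 list and 46054 had no cluster of an input or of control IP. The number shared by SCAF4 and SCAF8 fell to 89 without replicate 3 and to 57 when each list was reduced to its upper part by score.

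The leading regions were mostly coding exons. In HUWE1, regions over exons 5, 41 and 39 were found in all 6 SCAF IP lists, with 1 input and 1 control IP list at exon 5, 2 inputs at exon 41 and 3 inputs at exon 39. Exon 38 of HERC1 was held by 3 SCAF4 and 2 SCAF8 IP lists and by no input or control IP list, and exons 13 and 77 by 2 and 1. In HERC2, exons 4 and 14 were held by 3 SCAF4 and 2 SCAF8 IP lists each and exon 38 by 3 and 1, without input or control IP. Exons 4 and 38 are among those with copies elsewhere, and exon 14 is not. TRIP12 had exons 5, 29 and 30 in 2 lists of each protein, again without background lists. The 3 leading regions of UBR4 were found in all 6 lists. The first extended from exon 63 for 181 nt into intron 62, the second from exon 80 for 206 of its 291 nt into introns, and both were without background, whereas the third, over exon 27, occurred in 1 input. BIRC6 had a region of 377 nt in intron 1 and a region over exon 7, both in all 6 SCAF IP lists and 1 input, and a region of 766 nt within exon 10 that was also in 5 inputs and 1 control IP list. In MYCBP2, exon 12 was held by 2 SCAF4 and 1 SCAF8 IP lists, exon 15 by 1 and 2, and exon 3 by 2 SCAF8 IP lists.

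**Figure D5:**
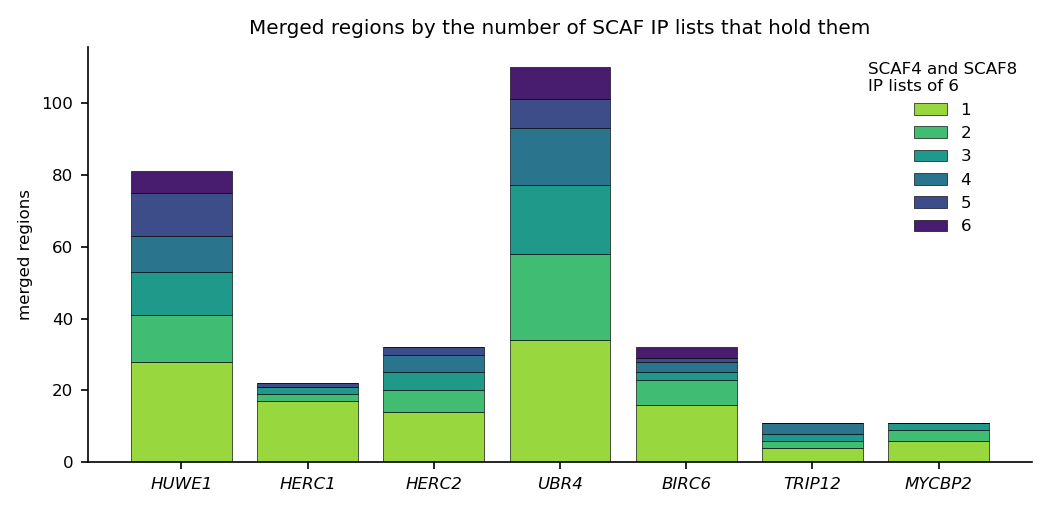
Number of merged regions with a SCAF4 or SCAF8 IP cluster in each gene (vertical axis), coloured by how many of the 6 SCAF IP lists held the region. UBR4 and HUWE1 have 110 and 81 regions, 17 and 18 of them in at least 5 lists, and MYCBP2 and TRIP12 have 11 each, none in 5 lists.

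The filters of the study act unevenly on these genes. Of 181 regions found in at least 2 of the 6 SCAF IP lists, 152 were left after removal of those that overlapped clusters of more than 1 input, and 142 after removal of those that overlapped control IP. HUWE1 had 2.21 and UBR4 1.79 merged input regions per 10 kb, above the limit of 1 at which a gene is disregarded, and the other 5 genes had 0.0346 to 0.300. With this limit HUWE1 lost its last 33 and UBR4 its last 60 regions, and 49 consensus clusters remained, 17 in HERC2, 15 in BIRC6, 7 in TRIP12, 5 in HERC1 and 5 in MYCBP2. The HERC2 counts here include regions that match other places of the genome, exons 4 and 38 among them. Such matches were found for 13 of its 32 regions with a SCAF IP cluster, so its place above BIRC6 is uncertain. By protein, 32 SCAF4 and 18 SCAF8 consensus clusters remained, with 14 and 3 in HERC2, 10 and 6 in BIRC6, and 3 and 5 in TRIP12. The count of 49 fell to 22 without replicate 3.

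Other genes of the pathway held fewer clusters by median, in counts not scaled to mRNA length. Of 24 other HECT ligase genes 19 held a cluster, with a median of 8 in the 6 SCAF IP lists. UBE3C had 125 clusters and HECTD4 had 81, both more than BIRC6 with 77. Against their own inputs 1 of the 19 was called higher, HECTD4 (difference 2.95 per 10000, exact permutation test, adjusted p = 0.0361), and 3 lay above all control IP lists. HECTD4 was picked out after its value was seen. Of 6 other UBR box genes, all held a cluster, UBR7 with 17 among them, and 1 was called higher, UBR3 (0.765 per 10000, exact permutation test, adjusted p = 0.0361), again named after its value was seen. Of 6 annotated BIR domain genes 4 held clusters and none was called, with BIRC5, the mitotic member, at 49 and XIAP at 12. Among 13 genes of partner proteins, 12 held clusters and none was called. UBA1, which activates ubiquitin, had 68 and MCL1, a substrate of HUWE1, had 57. The medians of these lists, 8, 14.5, 7 and 14, compare with 71 for the 7 genes and 9 for all genes. The median mRNA measured 15364 nt in the 7 genes and 4003.5 nt over all genes tested, and the part of length in these counts was not tested.

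Over the 18 lists, the genes with a pattern most like the mean of the 7 were a gene listed as ENSG00000286185 (Pearson r = 0.890 of log2 clusters per 10000 plus 1), AP2A2 (0.889), MAD1L1 (0.883), BTAF1 (0.880) and SMARCA4 (0.878), out of 1360 genes with at least 50 clusters. Among the 7, the values of HERC1 and TRIP12 were most alike (r = 0.810), and those of HUWE1 and UBR4 least (r = 0.0857). The 18 points share list size and replicate, and the correlations are a description. Genes nested in the 7 on the same strand, such as the microRNA genes MIR98 and MIRLET7F2 in HUWE1, held no cluster, except for a long noncoding RNA gene within UBR4 with 3 clusters of SCAF IP.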

How the data were processed

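PAR-CLIP libraries of the soluble and chromatin fractions (36 in all) were processed by the authors with cutadapt in Trim Galore, Bowtie2 2.2.9 on GRCh38 and Picard. Reads of both fractions were then combined per replicate and PARalyzer called clusters with minimum numbers of reads and T→C transitions, which gave 18 lists. The deposited lists hold position, strand and a score from 0.501 to 1. No source explains the score, which was used here only for ranking within a list. Coordinates fitted GRCh38, with all 24 chromosome names and no cluster beyond a chromosome end. The lists precede the filters on input and control IP, which were applied again here.

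Clusters were assigned by midpoint to genes of GENCODE 44, and exons were those of the isoform with the longest mRNA. Clusters per 10000 were compared over lists by two-sided exact permutation tests for 9830 protein-coding genes with at least 1 cluster, with Benjamini-Hochberg adjustment over all of them. The methods call the replicates biological without saying what was repeated, so p-values measure the spread between these lists. The members and gene lists were chosen with earlier results of these data known. All 7 genes are named, with up to 3 regions each by the number of SCAF IP lists, then fewest background lists, then order from the 5′ end. IPs and inputs of the same line and number come from 1 extract. Over 3423 genes their deviations from group means correlated by 0.0201 to 0.423 for 6 pairs with the same number, and by −0.319 to 0.186 for 12 with different numbers. Intervals and limits cover counting error only. Regions were compared with GRCh38 by blastn 2.17.0. Scripts ran in Python 3.11.15 with scipy 1.17.1, pandas 2.3.3, matplotlib 3.10.9, numpy 2.4.6 and pysam 0.24.0, and the test was checked on simulated data. Values of 1 gene of the pathway lists are not reported here.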

Additional observations from a re-analysis of the deposited data

Results flagged for a closer look

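A value far from the others of its group was found for 5 of the 7 genes, always among inputs. For normally distributed values chance gives such a value in about 1 of 20 groups, but a group with 1 cluster in 1 list and 0 in the rest always does, so that these values are not unusual in sparse lists. HERC1 and TRIP12 each had 1.09 clusters per 10000 in replicate 1 of the FLAG-SCAF8 input and 0 in the other inputs, both among the 6 inputs of the FLAG lines and among all 9. HERC2 had 0.854 in replicate 1 of the FLAG-SCAF4 input and 0 in the other inputs of the FLAG lines. MYCBP2 had 1.97 in replicate 3 of the parental input and 0 in the other 8. BIRC6 had 0 in replicate 3 of the FLAG-SCAF4 input, where the next lowest of the 6 was 1.71. Each of the high values is such a single cluster.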

How the results depend on the processing

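The number of the 7 genes called against their own inputs (2) was 5 with raw numbers, 1 with bases covered and 0 with the clusters of upper score (at or above the median of the list). Of all genes, 19.6%, 4.43% and 0% were called higher in these settings. The number of the 7 called was 0 with the replicate block and 0 without any 1 replicate, in fits whose smallest p of 0.0312 or 0.0286 left no call among all 9830 genes. The replicate block paired each IP with its own input, which leaves a difference in means as it is by construction, and HERC2 and BIRC6 had an adjusted p of 0.255 in its exact permutation test. The number apart from control IP (3) was 5 with raw numbers, 1 with the clusters of upper score and 3 to 5 without 1 replicate, where 20.9%, 5.42% and 13.3 to 31.4% of all genes were apart. A block cannot change this count. The difference of HUWE1 to control IP was −0.651 without replicate 2 and reached 5.05 without replicate 3. SCAF4 IP and SCAF8 IP were apart for no gene, but SCAF4 IP lay lower for 1 gene with bases covered and for 1 with the clusters of upper score (4.51 and 3.18% of all genes). Without 1 replicate, 1 to 4 genes were higher and 0 to 2 lower, against 14.6 to 26.2% and 9.75 to 12.8% of all genes. Pooled consensus clusters (49) numbered 29 when 3 of 6 lists were required, 142 without the limit on input density, 23 with the clusters of upper score and 22 to 44 without 1 replicate. SCAF4 and SCAF8 consensus clusters (32 and 18) fell to 8 and 3 when all 3 replicates were required. The exonic share (83.3%) was 78.0% of covered bases. Shared regions (145) were 57 with the clusters of upper score and 89 to 127 without 1 replicate. The cause was not tested in any of these cases. Exclusion of regions that match other places was chosen after seeing the data. The small control IP lists limit every comparison with them.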
